A study of Mus musculus with 6 samples.

Results

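The cytochrome P450 genes other than the retinoic acid hydroxylases of family Cyp26 were described in 6 RNA sequencing libraries of mouse hair follicle cells. Members were selected by gene symbol alone, as every row of the count files whose symbol starts with Cyp and a digit, leaving out symbols that start with Cyp26. The rule gave 102 of 24453 symbols, in 16 families and 37 subfamilies. They are 97 symbols of enzyme genes, 4 of pseudogenes and 1 of an antisense transcript (Cyp4x1os). Which members counted as expressed was defined by their reads in these same libraries. The family was picked with the difference between the groups already known, so the counts of changed members are a description and support nothing beyond themselves.

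Back skin of newborn animals (postnatal day 0) was the source of the sorted cells. There were 3 libraries with the genotype label Control and 3 with Ring1a-/- Ring1b-/I53A, called mutant here. Ring1a and Ring1b (genes Ring1 and Rnf2) are the ubiquitin ligases of Polycomb repressive complex 1. The I53A substitution is known to weaken the ligase activity of Ring1b while the protein stays in place. The mutants thus join loss of Ring1a, a null allele of Ring1b and the I53A allele, and these cannot be told apart. Neither the alleles of the controls nor a Cre driver is stated in the labels.

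P450 enzymes are heme proteins that insert an oxygen atom into a substrate, with electrons from P450 reductase in the endoplasmic reticulum or from ferredoxin in mitochondria. Families 1 to 3 hold many enzymes of drug and pollutant metabolism, family 4 hydroxylates fatty acids and eicosanoids, and the higher numbered families make or break down sterols, steroids, bile acids and vitamin D. In skin, P450 enzymes contribute to barrier lipids, to the local handling of vitamin D and steroids and to the breakdown of compounds that enter from outside.

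Library totals ran from 14335156 to 18811587 counts. Levels are CPM, counts scaled by effective library size, and means are given ± SD with n = 3 libraries a group. The labels do not say whether the libraries of a group came from separate animals, so the p-values measure the spread between these libraries, part of which may be technical. Transcript of Ring1 was at 247, 352 and 372 reads in controls and 59, 119 and 73 in mutants. The basal and outer root sheath keratinocyte markers Krt5, Krt14, Krt15, Sox9 and Trp63 summed to 11920 to 14188 CPM in controls and 12948 to 17334 CPM in mutants. The protocol text speaks of a Sca1-positive gate of interfollicular epidermis while the sample labels say hair follicle, and the Sca1 gene Ly6a had 8 to 25 reads a library.

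Few of the 102 members were transcribed to any extent. A filter on low counts kept 29 members, from 24 subfamilies. Another 13 had at least 5 reads in 1 library or more, 28 had fewer, and 32 had no read in any library. The 73 members below the filter held 404 of the 39302 reads of the family (1.03%). Of the 14345 genes tested, 3% were called changed at an adjusted p under 0.05, 0.404% lower and 2.59% higher in mutants. Among the 29 members, edgeR's quasi-likelihood test called 1 lower and none higher.

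The labels number the libraries of each group 1 to 3, and same-numbered libraries deviated together. With the replicate number as a block, 3 members were called lower (background 3.29%) and 1 higher (6.09%). At an unadjusted p under 0.05 there were 7 lower members (24.1%, against 5.44% of all genes tested) and 2 higher ones (6.90%, against 9.50%). The groups did not overlap for 5 members that were lower in every mutant library (17.2%, against 9.15% of all genes tested) and for 2 that were higher (6.90%, against 12.1%). The log2 fold change was negative for 21 of the 29, with a median of -0.37, where all tested genes had a median of -0.0033 (50.3% negative). These shares cover only members that passed the filter.

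Reads of the whole family, members below the filter included, made up 0.0463%, 0.0508% and 0.0440% of all counts in control libraries 1, 2 and 3. The same shares were 0.0325%, 0.0373% and 0.0292% in mutant libraries 1, 2 and 3. The summed level was 478 ± 31.3 CPM in controls and 324 ± 30.3 CPM in mutants. All mutant sums lay below all control sums. Cyp51 and Cyp2w1 together held 44.6% to 49.0% of the family's reads in controls and 48.3% to 52.8% in mutants. Without these genes the sums were 231, 273 and 260 CPM in control libraries 1, 2 and 3 and 159, 169 and 150 CPM in the mutants, again without overlap. These sums still hold Cyp1b1, with means of 41.1 CPM in controls and 8.74 CPM in mutants. They also hold Cyp2s1 (51.7 and 20.4 CPM) and Cyp2g1 (14.1 and 0.298 CPM). A lower sum therefore does not show that the family fell throughout.

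**Figure D1:**
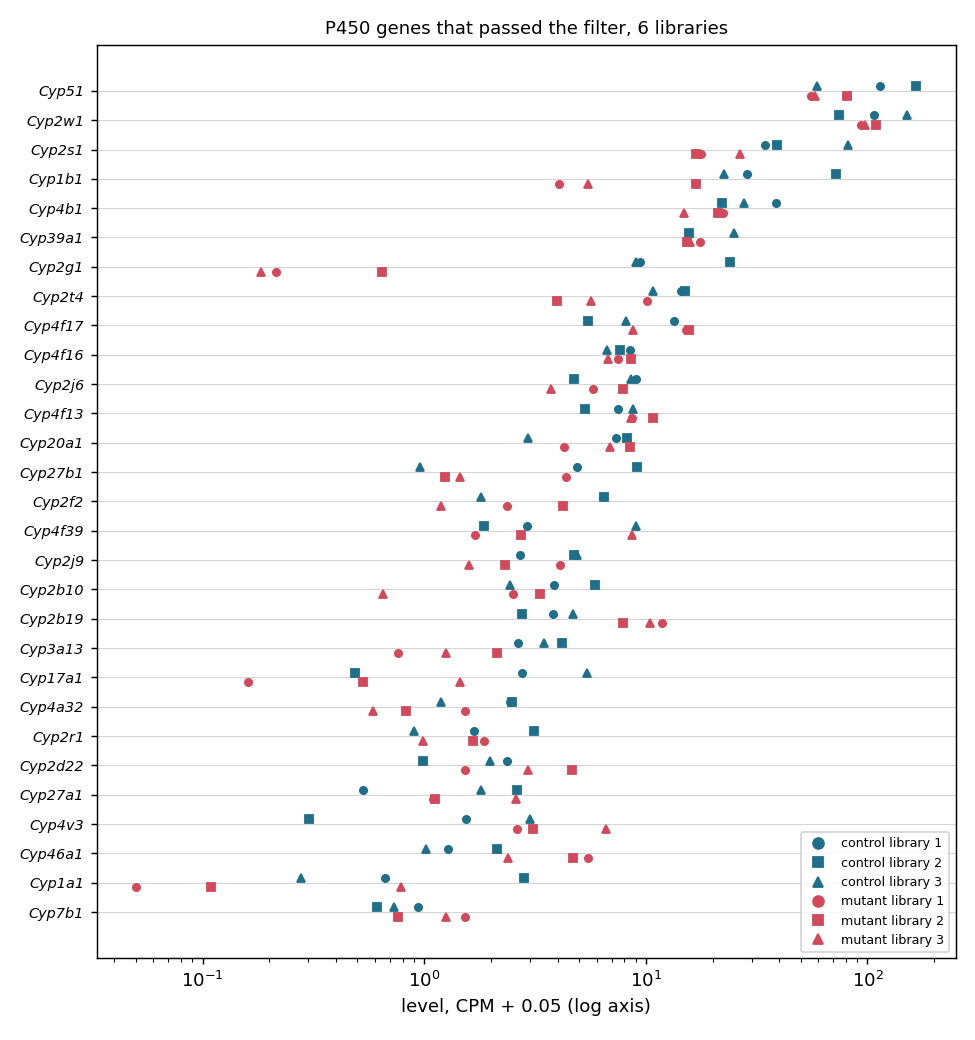
Level of each of the 29 P450 genes that passed the filter, in CPM plus 0.05 on a log axis, with 1 point per library (blue, control; red, mutant; symbols, library number) and genes ordered by their control mean. Cyp2g1 has all mutant points under 1 CPM and all control points above 8 CPM, while most other genes have groups that overlap.

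Levels of different genes were compared per kilobase of merged exon. On that scale Cyp2w1 led in every library, with 48.9 to 99.2 CPM per kb in controls and 61.3 to 71.7 in mutants. Cyp2w1 (chromosome 5, 139352617 to 139357033), an enzyme known from fetal gut and colon tumours, had 74.1, 107 and 151 CPM as its lowest, middle and highest control level and 93.0, 97.7 and 109 CPM in mutants. The mutants lay within the control range (log2 fold change -0.15, SE 0.24, adjusted p = 0.848). Cyp51 came next among controls, at 13.4 to 37.7 CPM per kb, then Cyp4b1 at 9.74 to 17.1 and Cyp2s1 at 6.95 to 16.6, and these 3 ranges overlapped. Cyp2t4, Cyp1b1, Cyp2g1 and Cyp39a1 followed with control means of 8.06, 7.03, 6.56 and 6.13 CPM per kb. Their library ranges also overlapped, so no order can be read among them. The lowest tested member by control mean was Cyp7b1, an oxysterol 7-alpha-hydroxylase, at 0.328 CPM per kb. By mutant mean it was Cyp1a1, at 0.0951 CPM per kb, followed by Cyp2g1 at 0.139.

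Cyp2g1, the only member of its subfamily, was called at the adjusted p threshold without the block. It encodes an enzyme best known from the olfactory mucosa and lies on chromosome 7 (26808892 to 26821205, plus strand, GRCm38). Reads numbered 137, 381 and 158 in control libraries 1, 2 and 3 and 3, 10 and 2 in mutant libraries 1, 2 and 3. The groups were far apart, and library 2 was the highest in each. Mean levels were 14.1 ± 8.52 CPM in controls and 0.298 ± 0.259 CPM in mutants. Cyp2g1 thus fell, with a log2 fold change of -5.52 (SE 0.67, edgeR, adjusted p = 0.00247). Between libraries of the same number the log2 ratio, with 0.5 CPM added to each level, was -3.89, -4.48 and -3.90. In bulk RNA, fewer cells that transcribe a gene and less RNA per cell cannot be told apart, here and for every member below.

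Markers of sebocytes, the lipid-secreting cells of the sebaceous gland, moved in part with Cyp2g1. Of 14 such markers 9 were tested, and Pparg and Fa2h fell, while with the block 4 were lower and 1 (Krt79) was higher. Of the 9, 8 had a negative log2 fold change. Their summed level was 103 to 239 CPM in controls and 156 to 348 CPM in mutants, with Krt79 the most abundant, and Awat1 had no read in any library. Pparg, the nuclear receptor of sebocytes, went from 7.90, 17.1 and 5.90 CPM to 0.164, 1.19 and 1.14 CPM. Fa2h, a fatty acid 2-hydroxylase, went from 4.50, 14.7 and 1.42 CPM to 0, 0.0596 and 0.134 CPM. As for Cyp2g1, library 2 was the highest control for both. It was also the highest control for Krt25, a marker of the inner root sheath, at 3.61, 7.66 and 2.38 CPM. The same held for members with a positive log2 fold change, such as Cyp46a1 (1.23, 2.07 and 0.965 CPM) and Cyp20a1 (7.29, 8.16 and 2.89 CPM). A high control 2 is thus not particular to the genes that fell. Krt25 was at 0.713, 0.358 and 1.27 CPM in mutants (edgeR, adjusted p = 0.0855). Of 10 tested markers of inner root sheath and hair shaft, 7 had a negative log2 fold change and 3 a positive one. The only 1 called without the block, Krt85, rose, from 1, 0 and 1 reads in controls to 44, 23 and 13 in mutants. Its log2 fold change was 4.99 (SE 1.03, edgeR, adjusted p = 0.0309). With the block 1 marker of this list was lower and 1 higher. The part of sebocytes or of other cells in the level of Cyp2g1 was not tested.

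Cyp1b1 and Cyp2s1 were lower in every mutant library. Neither passed in the fit with group only, and both passed with the replicate block, without the low-count filter and with DESeq2. Cyp1b1 (chromosome 17, 79701537 to 79715061, minus strand) is induced by the aryl hydrocarbon receptor and oxidises oestradiol, retinol and polycyclic hydrocarbons. Its counts were 420, 1151 and 394 in controls and 73, 282 and 81 in mutants, or 28.6, 72.2 and 22.4 against 4.0, 16.8 and 5.41 CPM. Library 2 was again the highest of each group, and the groups did not overlap. The log2 fold change was -2.23 (SE 0.59, adjusted p = 0.0817), and -2.31 with the block (SE 0.21, adjusted p = 0.000390). Without control 2 it was -1.55 (adjusted p = 0.254), and without mutant 2 it was -3.13 (adjusted p = 0.0348).

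Cyp2s1 (chromosome 7, 25802475 to 25816913, minus strand) encodes an enzyme of epithelia, skin included, that metabolises retinoids and eicosanoids. Counts were 504, 619 and 1445 in controls and 322, 283 and 397 in mutants, or 34.3, 38.8 and 82.0 against 17.7, 16.9 and 26.5 CPM. Control 3 stood above the other controls, and no mutant library reached the lowest control. The log2 fold change was -1.35 (SE 0.34, adjusted p = 0.0744), -1.27 with the block (SE 0.18, adjusted p = 0.00299) and -0.84 without control 3 (adjusted p = 0.107). Part of Cyp2s1 is overlapped on the other strand by Gm26707, and whether the counting used strand is not stated, so reads of the pair cannot be told apart.

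Cyp2b19 differed in the opposite direction and did not pass in the fit with group only. It encodes a keratinocyte enzyme of the upper epidermal layers that makes epoxides of arachidonic acid, and lies on chromosome 7 (26757142 to 26772630, plus strand). Counts were 55, 43 and 82 in controls and 215, 131 and 156 in mutants, or 3.75, 2.70 and 4.65 against 11.8, 7.81 and 10.4 CPM. Every mutant library was above every control. The log2 fold change was 1.43 (SE 0.35, adjusted p = 0.0638) and 1.45 with the block (SE 0.31, adjusted p = 0.0217).

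Markers of suprabasal and granular keratinocytes, the cells known for Cyp2b19, differed in direction. Of 11 markers 10 were in the files and tested. Fold changes on the log2 scale were positive for 7 (Krtdap, Sbsn, Lor, Ivl, Aloxe3, Asprv1 and Klk7) and negative for 3 (Krt1, Krt10 and Alox12b). For Krtdap and Ivl every mutant library was above every control. None was called without the block, and with it 1 was lower (Krt1) and 3 were higher (Krtdap, Asprv1 and Klk7). The summed level was 4082 to 5574 CPM in controls and 2672 to 4337 CPM in mutants, mostly from Krt1 and Krt10. Their part in the level of Cyp2b19 was not tested.

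**Figure D2:**
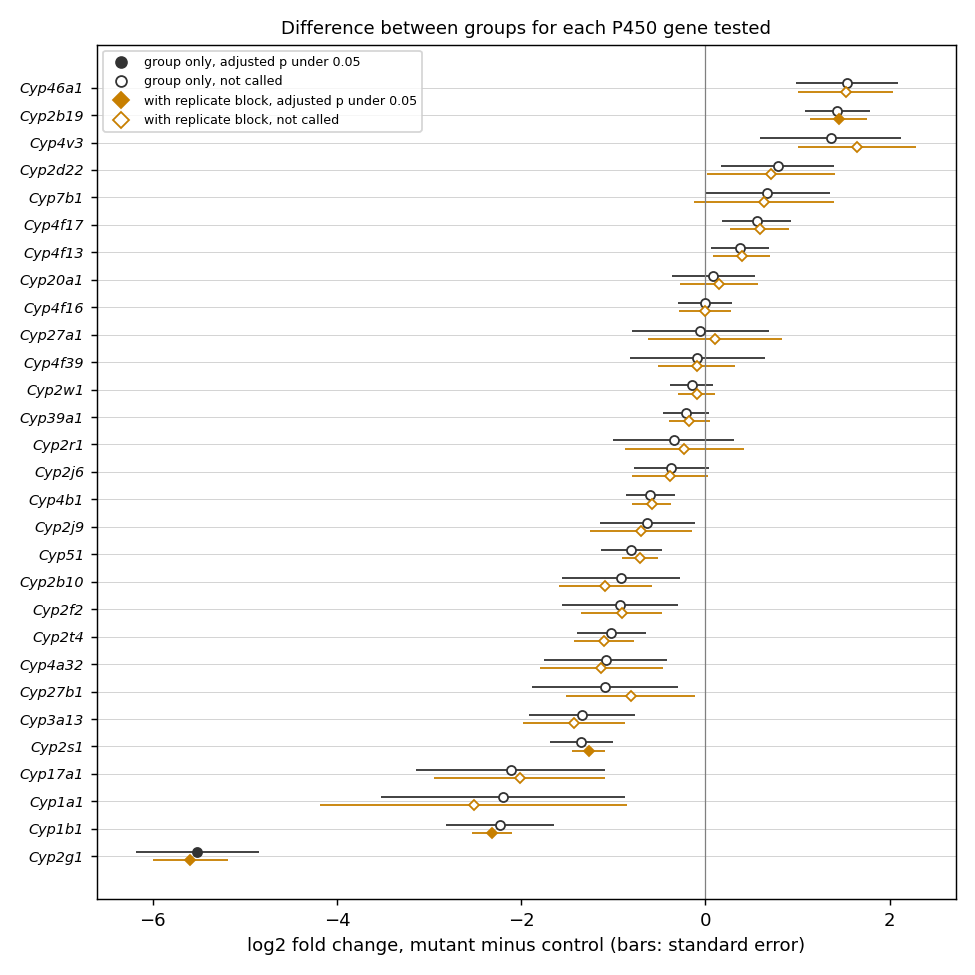
Log2 fold change of each tested P450 gene, mutant minus control, with its standard error as a bar, for the fit with group only (circles) and with the replicate block (diamonds); filled symbols have an adjusted p under 0.05. Cyp2g1 is filled in both fits, and Cyp1b1, Cyp2s1 and Cyp2b19 only with the block.

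CG content is a feature of promoters that Polycomb complexes are known to bind. Cyp2g1, called with the block, had no start region in the set used. The start regions of Cyp1b1, Cyp2s1 and Cyp2b19 are shown because these genes were also called with the block and differ in CG content. Each runs 5′ to 3′ from 250 bases before to 50 bases after the start, from RefSeq on GRCm38.p6, at chr17:79715012-79715311 (minus strand), chr7:25816476-25816775 (minus strand) and chr7:26756892-26757191 (plus strand). Capitals mark CG dinucleotides.
Cyp1b1: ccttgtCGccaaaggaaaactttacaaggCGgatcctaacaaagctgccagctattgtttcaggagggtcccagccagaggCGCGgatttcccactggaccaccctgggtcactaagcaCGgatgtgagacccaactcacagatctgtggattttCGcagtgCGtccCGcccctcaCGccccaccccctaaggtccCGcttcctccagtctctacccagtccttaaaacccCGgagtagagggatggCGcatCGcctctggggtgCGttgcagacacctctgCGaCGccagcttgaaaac
Cyp2s1: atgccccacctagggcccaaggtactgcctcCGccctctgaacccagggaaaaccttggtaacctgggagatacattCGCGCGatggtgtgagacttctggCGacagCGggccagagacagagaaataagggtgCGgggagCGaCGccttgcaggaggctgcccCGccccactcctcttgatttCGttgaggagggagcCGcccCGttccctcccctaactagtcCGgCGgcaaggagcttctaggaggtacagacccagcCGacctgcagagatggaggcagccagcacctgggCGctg
Cyp2b19: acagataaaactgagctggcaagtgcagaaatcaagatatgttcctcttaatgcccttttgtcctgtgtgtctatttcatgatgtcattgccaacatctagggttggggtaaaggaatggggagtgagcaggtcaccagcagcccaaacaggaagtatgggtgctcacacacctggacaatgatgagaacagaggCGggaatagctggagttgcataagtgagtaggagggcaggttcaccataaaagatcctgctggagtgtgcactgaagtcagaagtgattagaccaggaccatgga

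The window of Cyp1b1 holds 16 CG dinucleotides, that of Cyp2s1 17 and that of Cyp2b19 1. Of all 32851 windows of that length, 33.0% hold at least 16 and 31.4% at least 17. The core letters bound by the aryl hydrocarbon receptor, GCGTG searched on both strands, occur 1 time at Cyp1b1 and not in the windows of Cyp2s1 and Cyp2b19. They occur in 32.4% of all windows and in 18 of 85 windows of members. GCGTG contains a CG dinucleotide, so both counts share letters.

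The richest window of each of the 75 members with one was then set against its reads. At least 10 CG dinucleotides were found in 9 of 23 tested members, in none of 10 members with a few reads, in none of 21 with fewer and in 1 of 21 with no read, the antisense transcript Cyp4x1os. The 9 were Cyp46a1 (31), Cyp51 (28), Cyp2r1 (22), Cyp20a1 (20), Cyp2s1 (17), Cyp4v3 (17), Cyp1b1 (16), Cyp4f39 (11) and Cyp27a1 (10). Their log2 fold changes differed in direction, from -2.23 for Cyp1b1 to 1.54 for Cyp46a1. Whether CG content goes with the direction of change was not tested. Of all windows 43.5% held at least 10. That share counts every window, with more than 1 for some genes, and genes whether transcribed here or not. It is thus not a share of genes, and the member counts, from 1 window each, cannot be set against it directly. The other 14 tested members had fewer, among them Cyp2w1 and Cyp4b1 with 5 each and Cyp2f2 with none. Members of a cluster arose by duplication and share sequence, so they are not independent points.

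**Figure D3:**
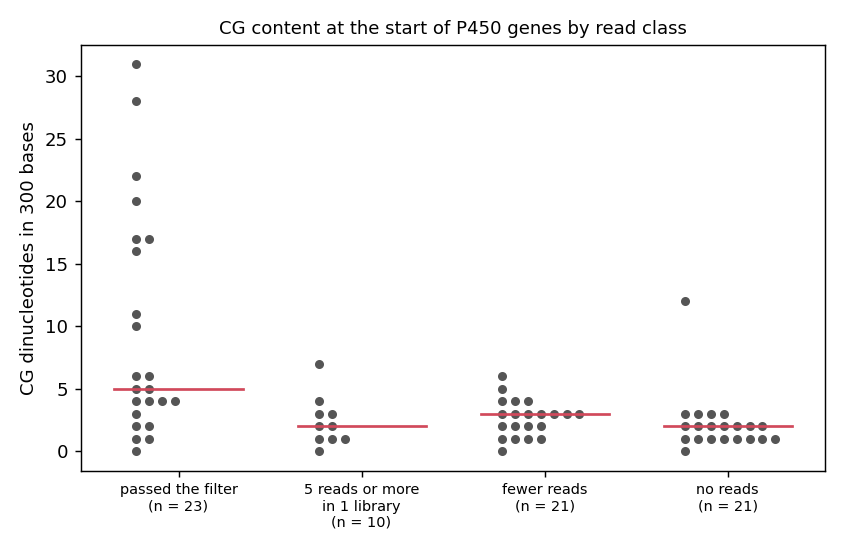
CG dinucleotides in the 300 bases around the start of 75 P450 genes, grouped by the reads they had; each point is 1 gene (its richest window) and the red line is the median. The 9 highest points of the tested genes run from 10 to 31, and genes below the filter stay under 10 except Cyp4x1os at 12.

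Cyp2s1, Cyp2b19 and Cyp2g1 belong to the Cyp2 cluster of chromosome 7 (25802475 to 27158668). The interval of 1356.2 kb holds 13 members and 6 other genes of the files. Of the members 6 passed the filter, and Egln2, an oxygen-sensing prolyl hydroxylase, was the only other gene that did. Along the cluster the members differed in direction: the start of Cyp2b19 lies 51.8 kb before that of Cyp2g1. Beyond Cyp2g1, 26.4 kb away, Cyp2a5, a coumarin hydroxylase, had 19 reads in control 2 and at most 2 elsewhere. Cyp2f2, which oxidises naphthalene in airway club cells, had 93, 102 and 31 reads in controls and 42, 70 and 17 in mutants (log2 fold change -0.92, SE 0.63, adjusted p = 0.570). Those groups overlapped.

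Cyp2t4, at the far end of the cluster, was at 14.3, 14.9 and 10.7 CPM in controls and 10.1, 3.94 and 5.62 CPM in mutants. Its groups stood just apart and it did not pass (log2 fold change -1.02, SE 0.37, adjusted p = 0.222, and 0.0670 with the block). The end of Cyp2t4 overlaps that of Egln2 on the opposite strand, and Egln2 was at 27.3 and 30.1 CPM (adjusted p = 0.861). Cyp2b10, the classic liver target of the receptor CAR, lies 911.3 kb before Cyp2g1. It was at 3.82, 5.84 and 2.38 CPM in controls and 2.47, 3.28 and 0.602 CPM in mutants, with overlapping groups (adjusted p = 0.583). The other Cyp2a and Cyp2b genes of the cluster had 0 to 2 reads a library.

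**Figure D4:**
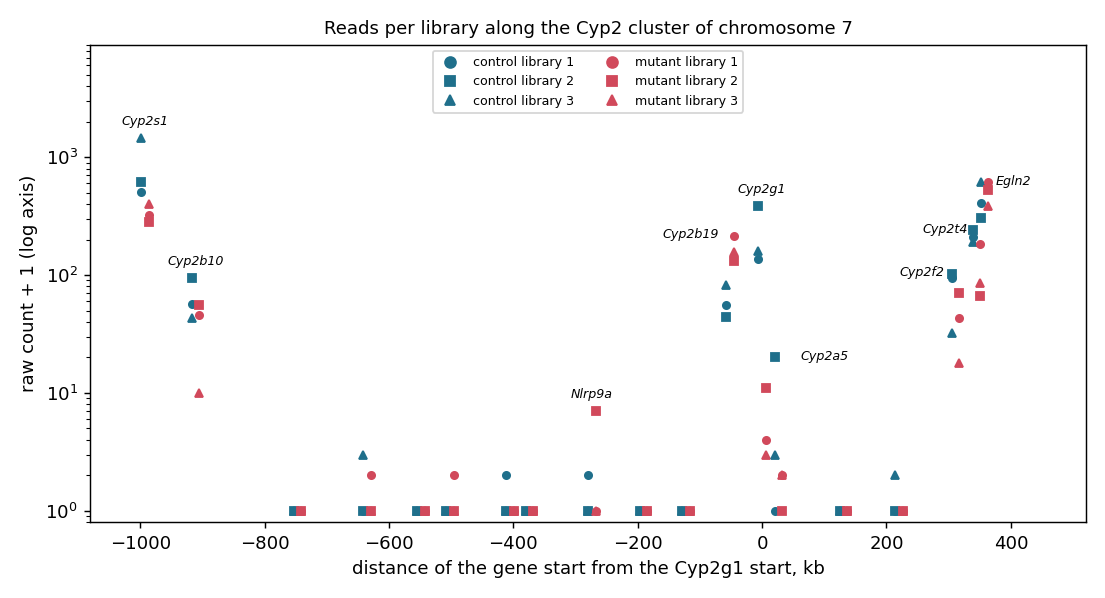
Raw count plus 1 on a log axis for the 19 genes of the files in the Cyp2 cluster of chromosome 7, placed by the distance of their start from that of Cyp2g1 in kb; each point is 1 library (blue, control; red, mutant). Genes with at least 5 reads in a library are named, and Cyp2b19 has its mutant points on top while its neighbour Cyp2g1 has its control points on top.

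Among enzymes of sterols, Cyp51, the lanosterol 14-alpha-demethylase of cholesterol synthesis (chromosome 5, 4081145 to 4104746), was at 114, 166 and 59.1 CPM in controls and 55.6, 81.0 and 57.8 CPM in mutants. Control 3 lay within the mutant range. The log2 fold change was -0.80 (SE 0.33, adjusted p = 0.284, and 0.0558 with the block). Without control 3 it was -1.1 and passed (adjusted p = 0.0211), and without control 2 it was -0.42 (adjusted p = 0.687). Of 25 other genes of cholesterol synthesis and its control, all tested, none was called in either fit, and their median log2 fold change was -0.22. Sqle, which makes squalene epoxide, was at 119 and 142 CPM (adjusted p = 0.818).

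Cyp46a1, the cholesterol 24-hydroxylase best known from neurons (chromosome 12, 108334381 to 108362234), had 18, 33 and 17 reads in controls and 99, 78 and 35 in mutants. Every mutant library was above every control, with 1.42 ± 0.578 and 4.14 ± 1.61 CPM. It did not pass (log2 fold change 1.54, SE 0.55, adjusted p = 0.210, and 0.107 with the block). Cyp39a1, which 7-alpha-hydroxylates the product of Cyp46a1, had 15.4, 15.7 and 25.0 CPM in controls and 17.5, 15.3 and 15.7 CPM in mutants (adjusted p = 0.791). Only control 3 stood out. Cyp7b1 had 9 to 13 reads in controls and 12 to 27 in mutants. Cyp7a1, the rate-limiting enzyme of bile acid synthesis in liver, had no read, and Cyp8b1, of the same pathway, had 3 reads, all in mutant 3.

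The enzymes of vitamin D were low and variable. Cyp2r1, which makes 25-hydroxyvitamin D, had 14 to 49 reads a library. Cyp27b1, which makes the active hormone, had 71, 145 and 16 reads in controls and 79, 20 and 21 in mutants (adjusted p = 0.5995). Cyp24a1, which inactivates it, had 6, 4 and 16 reads in controls and 5, 2 and 7 in mutants and was below the filter. Cyp27a1, a mitochondrial sterol 27-hydroxylase, had 7, 41 and 31 reads in controls and 19, 18 and 38 in mutants. None of the 5 tested genes of a list of 8 on vitamin D handling was called. The receptor gene Vdr was lower in the blocked fit and not in the unblocked one (189 and 133 CPM, log2 fold change -0.51, adjusted p = 0.420, and 0.0391 with the block).

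Among enzymes of steroid hormones, Cyp17a1, the 17-alpha-hydroxylase, passed the filter with 40, 7 and 95 reads in controls and 2, 8 and 21 in mutants. The groups overlapped (adjusted p = 0.382). Cyp11a1, the side-chain cleavage enzyme, had 1, 1 and 15 reads in controls and 5, 7 and 15 in mutants, and library 3 had the most of each group. Cyp21a1 had 19 reads in control 3, 2 in mutant 2 and none in the others. Aromatase (Cyp19a1) and Cyp11b2 had 1 read each over all libraries, and Cyp11b1 had none. None of 9 tested genes of 18 listed for steroid synthesis was called in either fit. Among the listed genes below the filter, Hsd3b6, a 3-beta-hydroxysteroid dehydrogenase named here after its values were seen, had 35, 246 and 6 reads in controls and none in any mutant library. Control 2 held most of these reads.

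Family 4 had no called member. Of 10 Cyp4f members 4 passed the filter, and their reads summed to 477, 357 and 580 in controls and 608, 635 and 488 in mutants when all 10 are counted. Cyp4f13 had 7.43, 5.27 and 8.74 CPM in controls and 8.61, 10.7 and 8.56 CPM in mutants. Cyp4f16 had 8.45, 7.59 and 6.64 CPM against 7.40, 8.53 and 6.69 CPM. Cyp4f17 had 13.3, 5.46 and 8.12 CPM against 15.2, 15.6 and 8.69 CPM. Their adjusted p were 0.655, 0.997 and 0.566, and groups overlapped for all 3. Cyp4f39, the counterpart of human CYP4F22, an omega-hydroxylase of the very long chain fatty acids of skin ceramides, was at 2.86, 1.82 and 8.97 CPM in controls and 1.64, 2.68 and 8.62 CPM in mutants. Library 3 was about as far above the rest in both groups, and the difference was near 0 (log2 fold change -0.09, SE 0.73, adjusted p = 0.977).

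Around Cyp4f39, 26 enzymes and transporters of barrier lipids were listed and 25 tested. Fa2h fell, as given above, none rose, and with the block 4 were higher (Ugcg, Sptlc3, Elovl1 and Tgm1) and 1 was lower. Cyp4b1, a fatty acid omega-hydroxylase known from lung (chromosome 4, 115624725 to 115647723), was at 38.5, 22.0 and 27.6 CPM in controls and 22.2, 21.1 and 14.8 CPM in mutants. The groups overlapped by a narrow margin (log2 fold change -0.60, SE 0.26, adjusted p = 0.326). Cyp4v3, which acts on fatty acids in the eye, had 22, 4 and 52 reads in controls and 47, 51 and 98 in mutants (adjusted p = 0.475). Cyp4a32 had 8 to 39 reads a library, and 20.1% of the 100-base windows of its transcript also occur in other genes, most often in Cyp4a10. Cyp4f18, a leukotriene B4 hydroxylase of white blood cells, had 5, 34 and 7 reads in controls and 4, 1 and 0 in mutants. Its groups did not overlap, by a narrow margin apart from control 2, and it was below the filter and not tested.

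Among the remaining members that passed the filter, Cyp3a13 (chromosome 5, 137892932 to 137921619) was the 1 gene to pass the filter among the 9 Cyp3a symbols, which are drug-metabolising enzymes of liver and gut. It had 38, 66 and 60 reads in controls and 13, 35 and 18 in mutants. The groups did not overlap in either counts or CPM (3.38 ± 0.777 and 1.33 ± 0.696 CPM), and it did not pass (log2 fold change -1.34, SE 0.58, adjusted p = 0.315). Cyp2j6 and Cyp2j9, of a subfamily that makes epoxides of arachidonic acid, were at 7.40 and 5.73 CPM and at 4.06 and 2.62 CPM (adjusted p = 0.761 and 0.651). Cyp2d22 was at 1.73 and 2.98 CPM and the orphan enzyme gene Cyp20a1 at 6.11 and 6.48 CPM, both with overlapping groups. Cyp1a1, the best known target of the aryl hydrocarbon receptor, had 9, 44 and 4 reads in controls and 0, 1 and 11 in mutants (adjusted p = 0.508). Control 2, highest for Cyp1b1, was also highest for Cyp1a1, while the highest mutant library was 2 for Cyp1b1 and 3 for Cyp1a1.

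Near 0, reads of a gene often came from 1 library. Cyp2u1, a hydroxylase of long-chain fatty acids, had 2, 1 and 2 reads in controls and 23, 7 and 1 in mutants, and it overlaps 4930534D22Rik on the other strand. Cyp2c55 had 19, 1 and 4 reads in controls and 4, 0 and 5 in mutants, and Cyp3a57 had 3, 1 and 7 against 0, 0 and 1. Cyp2d26 had 9 reads in control 1, 14 in mutant 1 and 1 in mutant 3. Cyp2j5 had 14 reads in mutant 2 and 1 in control 3. Cyp2d40 had 6 reads in control 1 and 4 in mutant 3, Cyp2c39 had 5 in control 3 alone, and Cyp2e1 had 4 in control 3 and 5 in mutant 2. With such counts no difference between the groups was detectable.

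**Figure D5:**
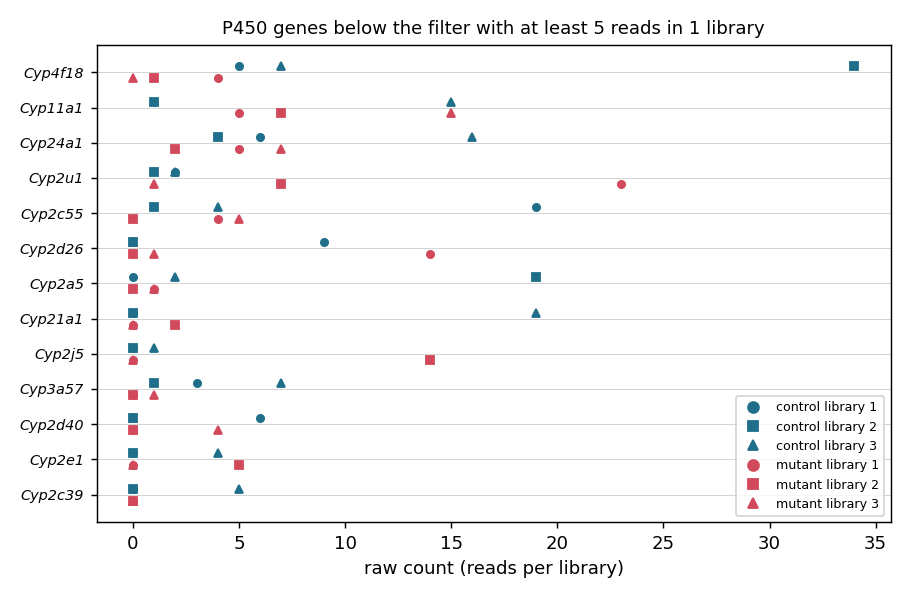
Raw reads per library of the 13 P450 genes below the filter that had at least 5 reads in 1 library (blue, control; red, mutant; symbols, library number). For most genes 1 library lies apart, such as control 2 for Cyp4f18 with 34 reads and mutant 1 for Cyp2u1 with 23.

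The large liver subfamilies were near silent. Of 16 Cyp2c symbols none passed the filter and 6 had no read, of 10 Cyp2d symbols 1 passed and 6 had no read, and of 9 Cyp3a symbols 6 had no read. Of 8 Cyp4a symbols 1 passed and 4 had no read. At 0 reads a level up to that of 3 reads is still possible, 0.164 to 0.204 CPM by library. Among the 32 members without a read, 20 share over 5% of their 100-base windows with another gene. Reads from the shared windows could have been dropped or counted elsewhere if the authors kept only unique matches. Cyp3a41a and Cyp3a41b share 90.8% and 88.2% of their windows. The next highest share was 36.2% (Cyp4a12b), so most windows of the rest of the 20 occur in no other gene. Of the 29 tested members 4 share that much (Cyp2s1, Cyp4a32, Cyp4f16 and Cyp4v3). Exons of 4 tested members overlap a gene on the other strand: Cyp2s1, Cyp2t4, Cyp51 (with Akap9) and Cyp2f2 (with Gm15883). Their counts may hold reads of that gene.

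Among partners and regulators of P450 enzymes, the electron donor Por was at 48.5 ± 11.2 and 51.6 ± 15.5 CPM (adjusted p = 0.923). Of 13 redox partners 11 were tested and none was called, with a median of -0.03. Cyb5r3, a cytochrome b5 reductase, passed in the blocked fit and not in the unblocked one (190 ± 78.4 and 310.1 ± 40.0 CPM, with adjusted p values of 0.224 and, blocked, 0.0183). Fdxr, the reductase of mitochondrial P450 enzymes, had 1.37 ± 0.876 and 4.75 ± 0.688 CPM and did not pass (adjusted p = 0.171).

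Of 28 receptors and cofactors known to control P450 genes 19 were tested, 3 rose and 1 fell. Arnt2, a partner of bHLH-PAS factors, averaged 0.967 ± 0.570 CPM over controls and 15.6 ± 4.78 CPM over mutants, a rise of 4.0 on the log2 scale (SE 0.51, adjusted p = 0.00340). The oestrogen receptor gene Esr1 rose, with 0.496 ± 0.406 and 6.02 ± 1.55 CPM (3.56, SE 0.63, adjusted p = 0.0160). Pparg fell (-3.63, SE 0.69, adjusted p = 0.0215). With the block 4 were higher and 5 lower.

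The aryl hydrocarbon receptor gene Ahr, upstream of the Cyp1 genes, was at 278, 239 and 287 CPM in controls and 170, 212 and 171 CPM in mutants. The groups did not overlap, and it passed in the blocked fit and not in the unblocked one (log2 fold change -0.54, adjusted p = 0.114, and 0.0310 with the block). Of its targets, Tiparp had 209 and 132 CPM and was lower in the blocked fit (adjusted p = 0.0182, against 0.321 unblocked), and Nqo1 was at 1.07 and 2.08 CPM (adjusted p = 0.541). Both had overlapping groups. Ahrr, of the same pathway, went the other way from Ahr, with 0.670 and 1.98 CPM and overlapping groups. It passed in neither fit (edgeR, log2 fold change 1.56, adjusted p = 0.366, and 0.280 with the block). The xenobiotic receptors of liver were barely transcribed, with Nr1i2 and Nr1i3 at 0 to 1.36 CPM and below the filter.

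Of 43 listed enzymes and transporters of drug conjugation, 34 were tested and none was called, against 1 higher and 3 lower (Mgst1, Mgst2 and Ces2g) with the block. Of 25 eicosanoid enzymes 18 were tested and none was called. With the block Ptgs2, the inducible prostaglandin synthase, was lower (75.8 ± 25.9 and 29.3 ± 20.9 CPM, with adjusted p values of 0.17 and, blocked, 0.00228).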

How the data were processed

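The authors deposited raw counts of reads, listed by gene symbol in a table for each library and not normalized. Per the labels' protocols, RNA was amplified from 10 ng before library construction. The submitters' processing notes list HTSeq 0.6.1, TopHat2 2.0.13, DESeq2 1.6.3 and Cufflinks 2.2.1 with build mm10. Their roles, the annotation release and the use of strand are not stated, so reads of overlapping or near-identical genes may be misplaced.

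Counts of all 24453 symbols were fitted with edgeR 4.0.16 in R 4.3.3 (TMM factors, filterByExpr, quasi-likelihood test, group as the only term, two-sided), with Benjamini-Hochberg adjustment over the 14345 genes that passed the filter. The threshold for a call was an adjusted p of 0.05. The SE is the log2 fold change divided by the root of the F statistic. The fit was run on simulated counts with a fixed dispersion, no shared effect of replicate number and changes only in genes with more reads. That run does not cover the pairing of libraries or members with few reads. Alternatives used DESeq2 1.42.0, limma 3.58.1 (voom), other size factors and filters, and fits leaving out 1 library. Every pair of libraries differed beyond sampling noise (chi-square per degree of freedom at least 25.7). Floors reflect counting error alone, because copies made by amplification are not independent molecules.

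Libraries with the same number deviated together from their groups (r from 0.245 to 0.459, and no more than 0.138 between different numbers). Deviations from a group mean sum to 0 within the group. A positive r between same numbers thus by itself lowers r between different numbers. With a minimum of 0.1, the numbers were taken as pairs, which rests on the data and not on the labels.

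Positions, exon lengths and transcripts are from GENCODE M21 (GRCm38), where 100 of 102 symbols matched, and start regions are from RefSeq. Members named with all values were those called in either fit, those whose groups did not overlap and the 12 most abundant, with raw counts for untested members reaching 5 reads in 1 library. Of each list of related genes up to 4 were to be named, called ones first and then by smallest p. Other members and listed genes were named for their known role, after their values were seen. Some listed genes are not reported here. Members and lists were chosen with earlier results of these data known.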

Additional observations from a re-analysis of the deposited data

How the results depend on the processing

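Cyp2g1 was called lower under all 13 alternatives, with log2 fold changes from -6.48 to -4.90 and an adjusted p of at most 0.0158 without 1 library. The count of lower members was 1, and 3 without the low-count filter, with DESeq2 and with the replicate block, each time Cyp2g1, Cyp1b1 and Cyp2s1. It was 1 to 3 without 1 library (3 without control 3 and 2 without mutant 2). The count of higher members was 0, and 1 (Cyp2b19) without the filter, with DESeq2 and with the replicate block, and 0 to 1 without 1 library (1 without control 3). Over all genes the count was 430, 986 with DESeq2, 1345 with the replicate block and 163 to 664 without 1 library. Of the listed context genes 5 were called, 11 with DESeq2, 3 with limma-voom, 20 with the replicate block and 1 to 14 without 1 library; this last count was added after seeing the data. The causes were not tested, beyond the smaller number of libraries in the fits without 1.

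The summed level differed by -154 CPM, mutant minus control, and by -170 to -138 CPM without 1 library. Among uncalled members with a difference near 0 the sign changed. Cyp4f16 went from -0.0035 to 0.00067 without the filter, 0.0015 with a filter of 1 CPM in 3 libraries, 0.0077 with limma-voom and -0.10 to 0.082 without 1 library. Cyp2w1 ran from -0.38 to 0.15 and Cyp39a1 from -0.33 to 0.067 without 1 library, above 0 only without control 3. The block changed no other call among the members. Depth limits the members under 5 reads a library, for which no difference could be seen.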
